A study of Homo sapiens with 4 samples.

Results

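The genes of the TGF-beta and BMP signalling pathways were examined in human liver cancer lines transfected with a mimic, a synthetic double-stranded version, of the microRNA miR-4730. The set holds 41 listed symbols, chosen by name for their place in the pathway: ligands, latent ligand binding proteins, antagonists, receptors, SMAD proteins, corepressors, ubiquitin ligases and response genes. A named probe set was found for 39 of them, out of 17687 genes on the array, and TGFB2 and BMPR1A were not analysed here. The 4 groups were Li-7 cells with the miR-4730 mimic, Li-7 cells with a negative control oligonucleotide, HEP-G2 cells with the mimic, and HEP-G2 cells with the negative control. Each group had 1 Affymetrix array of biotin-labelled total RNA and no replicate. The mimic was transfected with a lipid reagent at 3 nM, 24 h after seeding. The concentration of the control oligonucleotide is not stated separately. Li-7 and HEP-G2 are established lines, and they were grown in different media with the same share of fetal bovine serum, so line and medium cannot be told apart.

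In this pathway a ligand dimer brings together type I and type II receptor kinases. TGF-beta and activin receptors phosphorylate SMAD2 and SMAD3, and BMP receptors phosphorylate SMAD1, SMAD5 and SMAD9. These join the common partner SMAD4, enter the nucleus and act on response genes, among which are the feedback inhibitors SMAD6 and SMAD7. In liver, TGF-beta restrains hepatocyte growth and drives scar formation, and BMP signalling to hepatocytes controls iron balance through hepcidin.

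The transfected microRNA is shown first because its seed is what a mimic brings to a transcript. Its mature form lies at chr17:80419427-80419449 on the plus strand of GRCh38.p14 in RefSeq and is 23 bases long, written 5′ to 3′ with the seed (bases 2 to 8) in capitals.
hsa-miR-4730: cUGGCGGAgcccauuccaugcca
Among 2545 mature human microRNAs in the same RefSeq table, 1 carried this seed, miR-4730 itself. Transcript sequences were not used here, so seed sites in the pathway's mRNAs were not searched.

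All values are the deposited probe set values in log2 units, and a difference of 1 unit is 2-fold on that scale. HMGA1, a chromatin protein named as the target in the series title, read 10.91 with the mimic against 14.93 with control in Li-7, and 11.61 against 14.79 in HEP-G2. It passed the test used throughout (mean change -3.59, SE 0.29, limma adjusted p = 0.0241). A probe set was called detected on an array where it exceeded 95% of that array's 612 negative controls, a limit between 7.99 (Li-7 mimic) and 8.72 (Li-7 control). Of the 39 measured pathway genes, 22 were detected on all 4 arrays and 10 on none, and on each array 25 or 26 were detected. Hepatocyte markers did not agree between the lines. All 7 measured markers were detected on both HEP-G2 arrays, whereas in Li-7 only SERPINA1 was, on the mimic array (8.40). ALB, serum albumin, read 7.19 with the mimic and 7.30 with control in Li-7, below the limit, and 12.21 and 12.46 in HEP-G2. Of the markers of other cells, 0 of 3 endothelial genes and 1 of 3 blood genes (CD68) were detected on any array, and 2 of 5 stromal genes in Li-7 against 1 of 5 in HEP-G2.

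**Figure D1:**
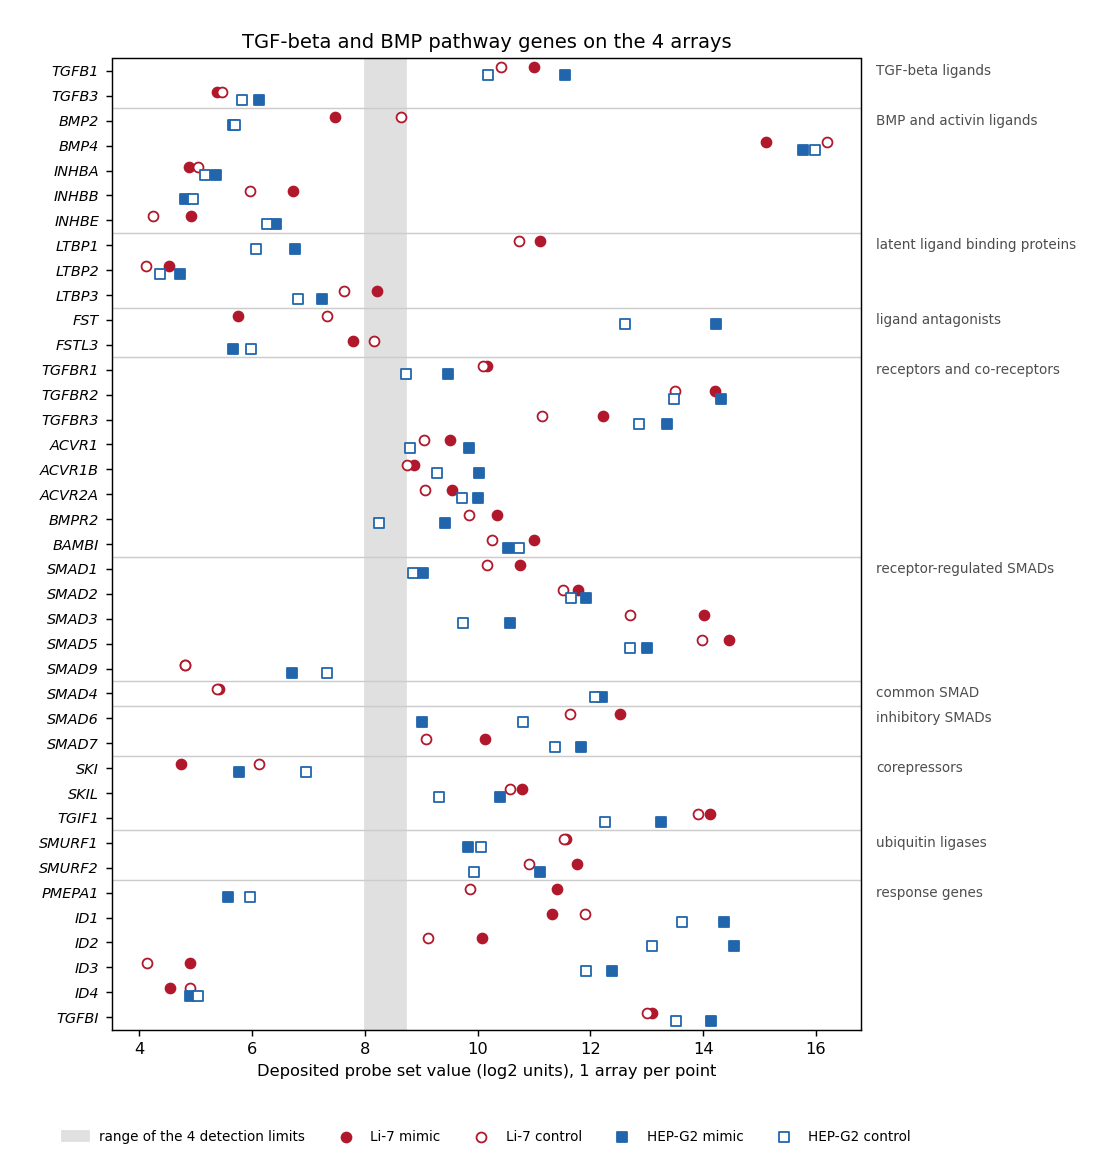
Deposited probe set values in log2 units (horizontal axis) of the 39 measured pathway genes (vertical axis, grouped by role), 1 point per array, with filled symbols for mimic and open symbols for control. The grey band spans the detection limits of the 4 arrays, and SMAD4, ID3 and FST lie left of it in Li-7 (circles) and right of it in HEP-G2 (squares).

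Most pathway genes read somewhat higher with the mimic, but no single member passed the test over all genes. The test was limma's treatment coefficient in a model with cell line, fitted on 12381 genes whose mean was at or above 4.90. Its p values measure disagreement between the lines, since no group had a replicate. On simulated arrays, with each change set alike in both lines, the fit made more false calls for this coefficient than the nominal share. A call at an adjusted p of 0.05 is therefore read as lenient. The share of false calls on the real arrays was not measured. Of the 37 members tested, 0 passed at an adjusted p of 0.05, against 0.42% of all genes tested (0.0808% higher and 0.339% lower), and the lowest adjusted p was 0.0769. At an unadjusted p under 0.05, 10 members were higher and 1 lower, against backgrounds of 9.75% and 9.71%. In direction alone, 23 of the 37 (62.2%) were higher with the mimic in both lines, against 34.1% of all genes tested, 5 were lower in both, against 31.0%, and 9 had opposite signs, against 34.9%. The median mean change was 0.39 for the members and 0.03 for all genes tested. Among the 22 members detected on all arrays it was 0.43, with 17 (77.3%) higher in both lines and 1 (4.55%) lower in both. The 5552 genes detected on all arrays had a median of -0.01, with 35.0% higher in both lines and 36.0% lower in both. These counts and medians are descriptions, and in bulk RNA fewer cells with a transcript and less of it per cell cannot be told apart.

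**Figure D2:**
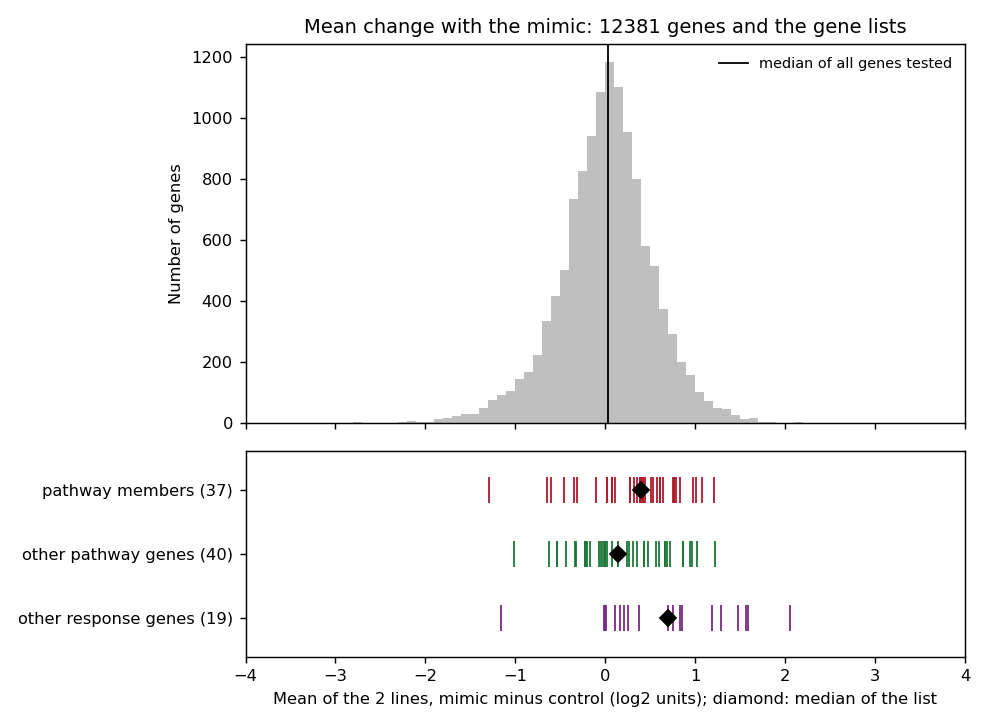
The upper panel counts the 12381 genes tested (vertical axis) by mean change with the mimic over both lines in log2 units (horizontal axis), with a line at their median of 0.03. The lower panel marks each tested gene of the 3 lists as a tick and each list's median as a diamond, at 0.39 for the 37 pathway members, 0.14 for 40 other pathway genes and 0.69 for 19 other response genes.

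Among the ligands, the best detected differed in direction. TGFB1, the main TGF-beta ligand, read 11.00 with the mimic and 10.42 with control in Li-7, and 11.55 with the mimic and 10.19 with control in HEP-G2. Both mimic arrays lay above both control arrays, by 1.49-fold in Li-7 and 2.57-fold in HEP-G2, yet the gene did not pass the test (mean change 0.97, SE 0.29, adjusted p = 0.15). BMP4, a BMP ligand, read 15.11 with the mimic and 16.19 with control in Li-7, and 15.77 and 15.99 in HEP-G2. It was lower with the mimic in both lines, by 2.12-fold in Li-7 and 1.16-fold in HEP-G2 (mean change -0.65, SE 0.29, adjusted p = 0.283). BMP2, its close relative, read 7.47 with the mimic and 8.64 with control in Li-7, and 5.65 and 5.70 in HEP-G2. None of those values was above the limit, the Li-7 control lying just under it, so no fold is given for BMP2.

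The remaining ligands were not detected on any array. TGFB3 and INHBA, which encodes the activin A subunit, had differences between -0.16 and 0.30 in both lines. INHBB, the activin B subunit, read 6.73 with the mimic and 5.95 with control in Li-7, and 4.80 and 4.95 in HEP-G2. INHBE, a liver-secreted activin subunit, read 4.91 and 4.25 in Li-7, and 6.42 and 6.25 in HEP-G2, mimic before control. These values say only that the transcripts lay within the range of the negative controls.

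Latent TGF-beta binding proteins, which tether the inactive ligand in the matrix, read higher with the mimic in both lines. Only for LTBP1 in Li-7 were both values detected, and the other differences rest on values under the limits. LTBP1 read 11.10 with the mimic and 10.73 with control in Li-7, and 6.75 and 6.06 in HEP-G2, where it was not detected. LTBP3 read 8.21 and 7.63 in Li-7 and 7.24 and 6.81 in HEP-G2, and was detected on the Li-7 mimic array alone. LTBP2 was not detected on any array, fell below the filter and was not tested. Neither of the LTBP genes that were tested passed (adjusted p = 0.305 for LTBP1 and 0.312 for LTBP3).

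Follistatin, FST, is a secreted protein that binds and blocks activins. It read 14.22 with the mimic and 12.61 with control in HEP-G2, and 5.75 and 7.33 in Li-7. The HEP-G2 values were far above the limit and 3.06-fold apart, whereas both Li-7 values lay under it, so that the Li-7 difference of -1.58 lies within the range of the negative controls. The mean over both lines was 0.02 (SE 0.66, adjusted p = 0.993), and its sign turned after quantile normalization (-0.04). FSTL3, a related activin antagonist, was not detected on any array, at 7.78 with the mimic and 8.16 with control in Li-7 and 5.67 and 5.98 in HEP-G2.

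The receptors had nearly all the same sign. All 8 measured receptors and co-receptors had a positive mean change, against 52.6% of all genes tested. Of the 8, 7 (87.5%) were higher with the mimic in both lines, against 34.1% of all genes tested. While 0 passed the test, against 0.42%, 4 (50%) were higher at an unadjusted p under 0.05, against 9.75%. Their differences had a median of 0.50 (Li-7) and 0.75 (HEP-G2). TGFBR2, the type II TGF-beta receptor, read 14.20 with the mimic and 13.50 with control in Li-7, and 14.31 and 13.48 in HEP-G2. Its mimic arrays stood above both control arrays by nearly the same step in each line (mean change 0.77, SE 0.24, adjusted p = 0.170). TGFBR3, the co-receptor betaglycan, read 12.23 and 11.14 in Li-7, and 13.36 and 12.86 in HEP-G2. The step was 2.12-fold in Li-7 and 1.41-fold in HEP-G2, and within each line the mimic array was the higher (mean change 0.79, SE 0.27, adjusted p = 0.186).

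BMPR2, the type II BMP receptor, read 10.34 with the mimic and 9.84 with control in Li-7, and 9.41 and 8.25 in HEP-G2. The HEP-G2 control was under its limit of 8.35, so the HEP-G2 mimic array was at least 2.09-fold higher, taking the limit for the control (mean change 0.83, SE 0.27, adjusted p = 0.178). ACVR1, a type I receptor for BMPs, read 9.52 and 9.05 in Li-7, and 9.85 and 8.80 in HEP-G2, mimic before control. It was 1.38-fold higher with the mimic in Li-7 and 2.08-fold higher in HEP-G2 (mean change 0.76, SE 0.27, adjusted p = 0.197). TGFBR1, the type I TGF-beta receptor, and ACVR1B, the type I activin receptor, differed little in Li-7 (0.08 and 0.13) and by 0.75 each in HEP-G2. ACVR2A, a type II activin receptor, was higher by 0.49 in Li-7 and 0.28 in HEP-G2. BAMBI, a decoy receptor without a kinase, was the exception, with differences of 0.74 (Li-7) and -0.20 (HEP-G2).

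**Figure D3:**
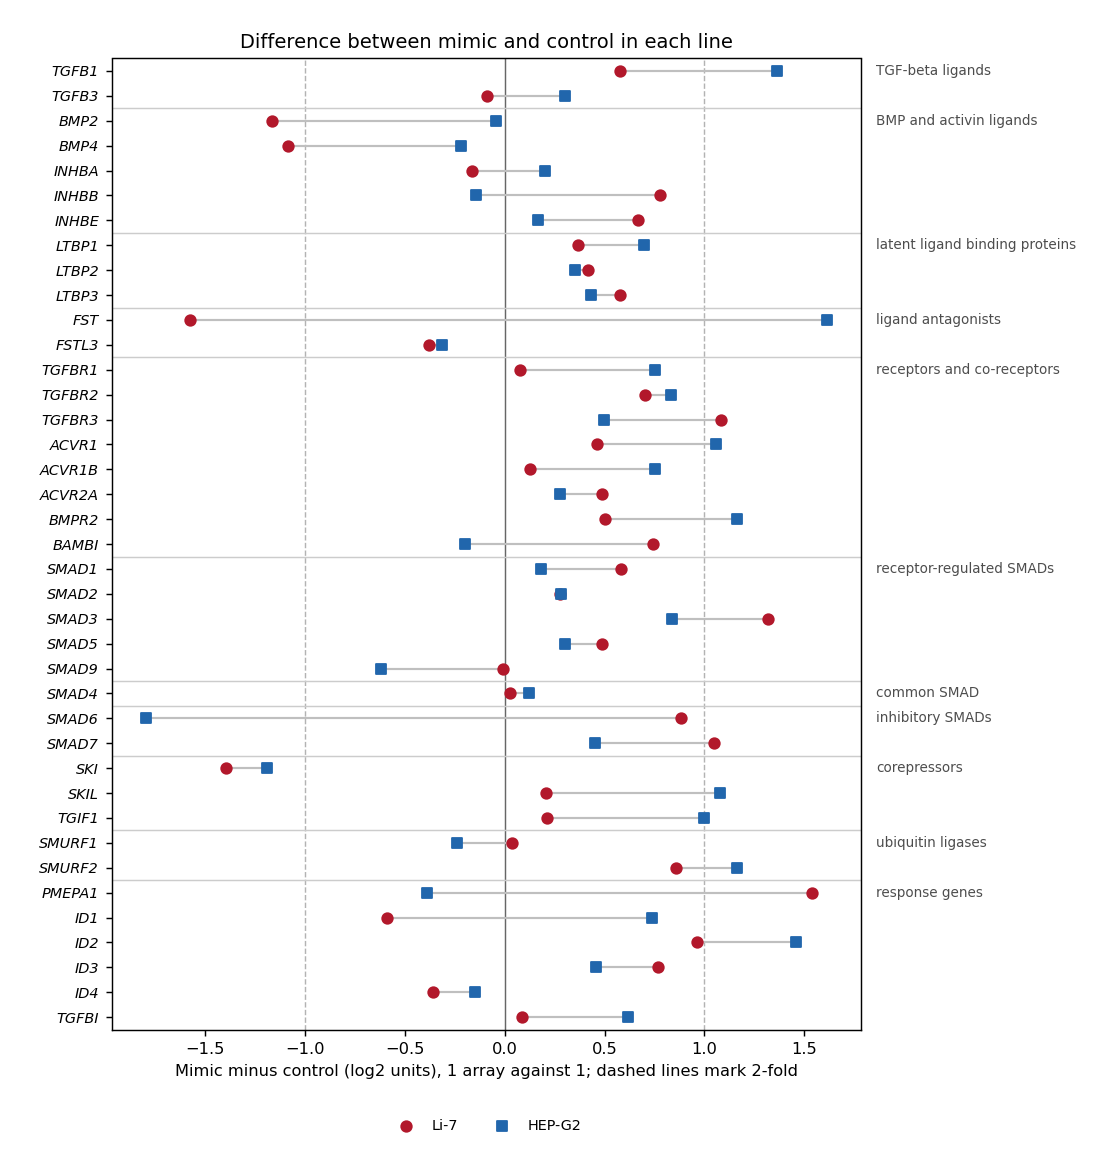
Difference between mimic and control in log2 units (horizontal axis) for the 39 measured pathway genes (vertical axis, by role), 1 array against 1 array, with circles for Li-7, squares for HEP-G2 and dashed lines at 2-fold. SKI lies left of the lower dashed line in both lines, and FST, SMAD6 and PMEPA1 have their symbols on opposite sides of 0.

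Among the receptor-regulated SMADs, 4 of 5 (80%) were higher with the mimic in both lines, against 34.1% of all genes tested. Of the 5, 0 passed, against 0.42%. SMAD3, which carries TGF-beta and activin signals, read 14.02 with the mimic and 12.70 with control in Li-7, and 10.57 and 9.73 in HEP-G2. The step was 2.49-fold in Li-7 and 1.78-fold in HEP-G2, and the mean change of 1.08 (SE 0.26, adjusted p = 0.110) was at or above that of 97.9% of genes tested. SMAD2, its partner in the same branch, was higher by 0.28 in each line. SMAD1 and SMAD5, of the BMP branch, were higher by 0.58 and 0.48 in Li-7 and by 0.18 and 0.30 in HEP-G2. SMAD9, the remaining BMP SMAD, was not detected on any array and read 4.81 with the mimic and 4.82 with control in Li-7, and 6.71 and 7.33 in HEP-G2.

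SMAD4, the partner that all these SMADs share, was detected in a single line. It read 12.21 with the mimic and 12.09 with control in HEP-G2, and 5.41 and 5.38 in Li-7. The Li-7 values lay well under the limits of 7.99 and 8.72. The mean change with the mimic was 0.07 (SE 0.24, adjusted p = 0.901). A single probe set represents SMAD4, so a low level and a change in the probed part of the transcript cannot be told apart.

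Promoter sequence is shown for response and feedback genes of the set, because these are the members on which SMAD complexes are known to act. RefSeq promoter windows (GRCh38.p14) were found for 36 of the 39 measured members, and the 250 bases before each gene's start were searched on both strands for GTCTAGAC, the palindromic SMAD box, CAGAC, a shorter SMAD element, and GGCGCC, a GC-rich element bound by SMADs. None of these strings holds another. Only 1 window per gene was searched, so sequence past that start, further upstream or at other starts was not. The lack of a match in a window therefore does not mean that the gene lacks the element. Within these windows GTCTAGAC occurred in 1 member, SMAD6, and in 0.176% of 27305 promoters. CAGAC occurred in 36.1% of members and 37.8% of promoters. GGCGCC occurred in 14 members (38.9%) and 16.1% of promoters, and the members' windows were also richer in G and C, with a median of 70.4% against 58.0%. The windows follow 5′ to 3′ on each gene's own strand, with matches in capitals.
SMAD6 (chr15:66701986-66702235, plus strand): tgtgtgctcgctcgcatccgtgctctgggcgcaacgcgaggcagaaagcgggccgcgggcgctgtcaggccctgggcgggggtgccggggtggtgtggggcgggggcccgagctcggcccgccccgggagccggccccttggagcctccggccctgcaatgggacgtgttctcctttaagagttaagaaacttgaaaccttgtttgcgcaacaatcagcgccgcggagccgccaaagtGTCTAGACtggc
SMAD7 (chr18:48950966-48951215, minus strand): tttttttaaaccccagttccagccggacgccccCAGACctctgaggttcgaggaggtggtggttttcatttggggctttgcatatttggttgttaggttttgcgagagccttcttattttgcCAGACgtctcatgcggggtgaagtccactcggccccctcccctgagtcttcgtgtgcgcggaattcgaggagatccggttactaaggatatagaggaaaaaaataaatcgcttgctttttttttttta
PMEPA1 (chr20:57711473-57711722, minus strand): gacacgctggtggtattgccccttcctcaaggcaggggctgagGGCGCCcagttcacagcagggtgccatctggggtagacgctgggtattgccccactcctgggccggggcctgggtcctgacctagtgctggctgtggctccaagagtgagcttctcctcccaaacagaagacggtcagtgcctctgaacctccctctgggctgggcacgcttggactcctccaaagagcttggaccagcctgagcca
ID3 (chr1:23559502-23559751, minus strand): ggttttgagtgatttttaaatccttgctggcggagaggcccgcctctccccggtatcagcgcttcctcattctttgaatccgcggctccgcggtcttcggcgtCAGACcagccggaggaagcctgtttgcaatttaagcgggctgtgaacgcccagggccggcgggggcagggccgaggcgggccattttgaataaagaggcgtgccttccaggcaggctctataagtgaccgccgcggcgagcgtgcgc
The SMAD6 box begins 12 bases before the start of the gene. SMAD7 and ID3 hold CAGAC and PMEPA1 holds GGCGCC. A match is a description of the letters in the window and not a measured binding site.

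The inhibitory SMADs, which damp the pathway as feedback, parted. SMAD7 read 10.13 with the mimic and 9.09 with control in Li-7, and 11.83 and 11.37 in HEP-G2. It was higher with the mimic in both lines, by 2.07-fold and 1.37-fold (mean change 0.75, SE 0.27, adjusted p = 0.202). SMAD6 read 12.53 with the mimic and 11.64 with control in Li-7, and 9.01 and 10.80 in HEP-G2. It was thus 1.85-fold higher with the mimic in Li-7 and 3.47-fold lower in HEP-G2, with all 4 values detected. For SMAD6 the mean change of -0.46 (SE 0.57, adjusted p = 0.708) did not pass. No test of the SMAD6 responses against each other was possible with 1 array per group. Whether the letters of the promoter windows relate to these responses was not tested.

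Corepressors hold SMAD complexes inactive on DNA, and SKI was the member with the lowest p. SKI read 4.73 with the mimic and 6.13 with control in Li-7, and 5.77 and 6.96 in HEP-G2. Within each line the mimic array was the lower, by 1.40 in Li-7 and 1.19 in HEP-G2, but all 4 values lay under the detection limits, so no fold is given. The mean change was -1.29 (SE 0.25, adjusted p = 0.0769). SKIL, its relative SnoN and itself a TGF-beta response gene, went the other way, at 10.78 with the mimic and 10.57 with control in Li-7, and 10.39 and 9.32 in HEP-G2. TGIF1, a homeobox corepressor, read 14.12 and 13.91 in Li-7, and 13.25 and 12.26 in HEP-G2, mimic before control. Both were higher by 0.20 (SKIL) and 0.21 (TGIF1) in Li-7 and by 1.08 (SKIL) and 1.00 (TGIF1, just under 2-fold) in HEP-G2, and neither passed (adjusted p = 0.293 for SKIL and 0.304 for TGIF1).

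The SMURF ubiquitin ligases mark SMADs and receptors for degradation. SMURF2 read 11.77 with the mimic and 10.91 with control in Li-7, and 11.11 and 9.94 in HEP-G2. It was 1.81-fold higher with the mimic in Li-7 and 2.24-fold higher in HEP-G2 (mean change 1.01, SE 0.25, adjusted p = 0.116). SMURF1 had differences of 0.04 (Li-7) and -0.24 (HEP-G2).

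The response genes did not behave as 1 group. ID2, an inhibitor of bHLH transcription factors and a BMP response gene, read 10.08 with the mimic and 9.12 with control in Li-7, and 14.55 and 13.10 in HEP-G2. It was 1.95-fold higher with the mimic in Li-7 and 2.74-fold higher in HEP-G2, the highest mean change of the members (1.21, SE 0.26, adjusted p = 0.0907). ID2 passed where an intensity trend was allowed in the variance (adjusted p = 0.0320) and where genes under the median level were left out (adjusted p = 0.0420), and SMAD3 passed with the trend as well (adjusted p = 0.0439). ID1 read 11.31 and 11.91 in Li-7, and 14.37 and 13.63 in HEP-G2, mimic before control, and thus had opposite signs. ID3 was higher with the mimic in both lines, by 0.77 in Li-7, where it was not detected, and by 0.46 in HEP-G2. ID4 was not detected on any array, fell below the filter and was not tested.

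PMEPA1, a membrane protein that TGF-beta induces and that restrains SMAD activation, read 11.41 with the mimic and 9.87 with control in Li-7, and 5.58 and 5.96 in HEP-G2. It was detected in Li-7 alone and was 2.90-fold higher with the mimic there (mean over both lines 0.57, SE 0.44, adjusted p = 0.524). TGFBI, a matrix protein named for its induction by TGF-beta, was higher by 0.08 in Li-7 and 0.62 in HEP-G2.

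Counted at 2-fold within a line, as differences of single arrays with no test, 4 members were higher and 4 lower with the mimic in Li-7 (10.8% each), against 3.72% and 4.12% of all genes tested. The higher ones were TGFBR3, SMAD3, SMAD7 and PMEPA1, and the lower ones BMP2, BMP4, FST and SKI. In HEP-G2, 7 were higher and 2 lower (18.9% and 5.41%), against 5.77% and 6.28%. The higher ones there were TGFB1, FST, ACVR1, BMPR2, SKIL, SMURF2 and ID2, and the lower ones SMAD6 and SKI. SKI was the only member past 2-fold with the same sign in both lines. BMP2, FST in Li-7 and SKI were under the detection limits.

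Most pathway genes differed between the lines themselves. Taking the cell line coefficient of the same fit, Li-7 minus HEP-G2 with 2 arrays per line, 26 of 37 members (70.3%) passed at an adjusted p of 0.05, against 44.9% of all genes tested. Of these, 15 were higher in Li-7 and 11 lower, against backgrounds of 24.3% and 20.7%. The 2 arrays of a line were a mimic and a control array and not replicates. Like the treatment p values, the line p values rest on the disagreement between the lines in mimic response. Spread between cultures of the same line was not measured, so the line calls and their small p values are read with caution. With an ordinary t statistic, which rests on 1 residual degree of freedom, 0 members passed. Of the 26 that passed, 6 were not detected on any array (BMP2, INHBB, INHBE, FSTL3, SMAD9 and SKI). Among the 22 members detected on all arrays, 13 (59.1%) passed, against 40.4% of the 5552 genes detected on all arrays.

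**Figure D4:**
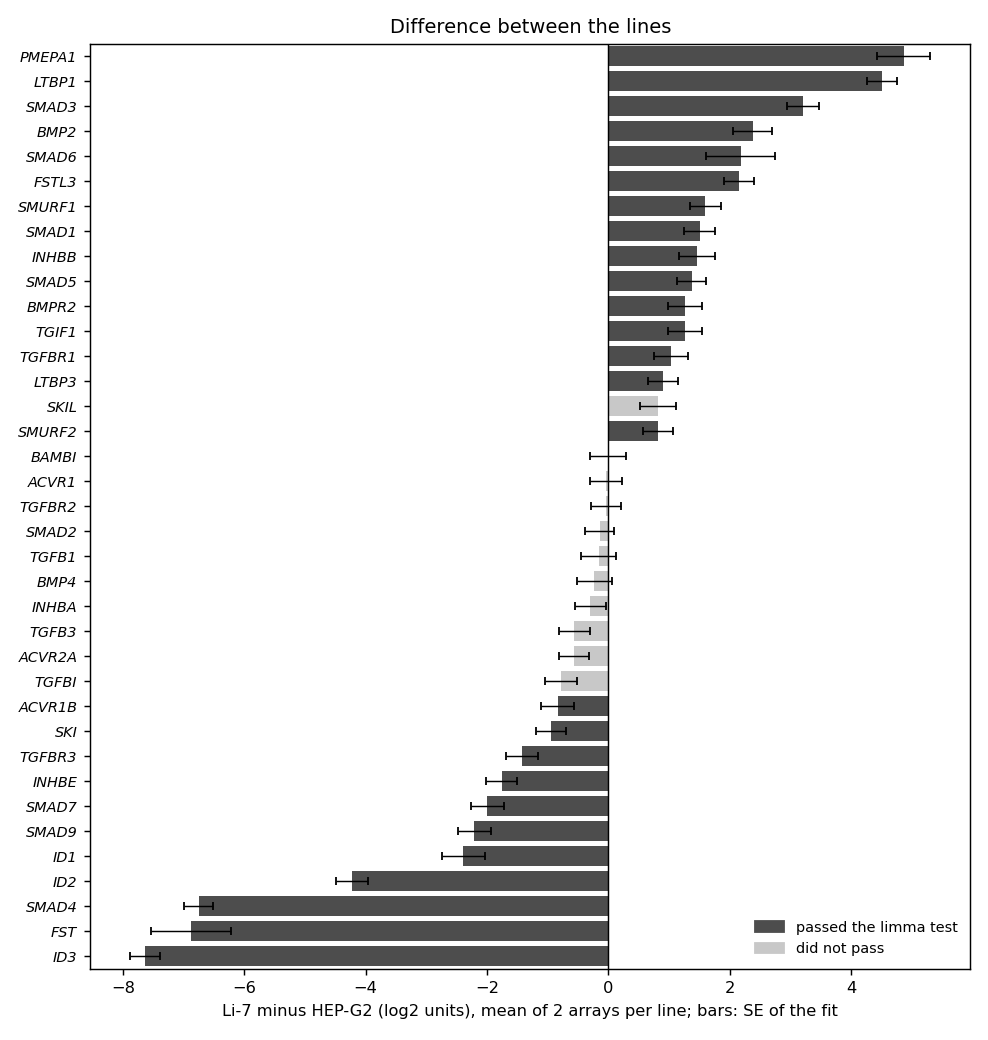
Difference between the lines, Li-7 minus HEP-G2, in log2 units (horizontal axis) for the 37 pathway genes tested (vertical axis, sorted), as means of the 2 arrays per line with the SE of the fit. Dark bars passed the limma test, and ID3 (-7.63), FST (-6.87) and SMAD4 (-6.75) lie far to the left with Li-7 values under the detection limit, and PMEPA1 (4.87) and LTBP1 (4.51) far to the right with HEP-G2 values under it.

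ID3, FST and SMAD4 were lower in Li-7, where none of them was detected. ID3, a further inhibitor of bHLH factors, read 4.90 and 4.14 in Li-7 against 12.38 and 11.92 in HEP-G2, mimic before control, a difference of -7.63 (SE 0.25, limma adjusted p = 2.34e-06). Since Li-7 was under the limit, HEP-G2 was at least 13.9-fold higher when the limits stand for the Li-7 values. SMAD4 differed by -6.75 (SE 0.24, adjusted p = 3.35e-06), and HEP-G2 was at least 13.8-fold higher on the same reckoning. For FST the difference was -6.87 (SE 0.66, adjusted p = 0.000199), at least 33.3-fold higher in HEP-G2.

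Other ID genes were lower in Li-7 too, with detection in both lines. ID2 was 18.7-fold lower in Li-7 (difference -4.23, SE 0.26, adjusted p = 2.65e-05) and ID1 5.24-fold lower (difference -2.39, SE 0.35, adjusted p = 0.00158). SMAD7 was 3.98-fold lower and TGFBR3 2.68-fold lower in Li-7 (adjusted p = 0.00104 and 0.00485). For each of these genes both Li-7 arrays, mimic and control, lay under both HEP-G2 arrays. The genes had already passed the line test, so this adds no support to it. The share of all genes with such a separation was not counted.

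Higher in Li-7 were PMEPA1, LTBP1 and SMAD3. PMEPA1 differed by 4.87 (SE 0.44, adjusted p = 0.000154) and LTBP1 by 4.51 (SE 0.25, adjusted p = 1.73e-05), and as both were under the limit in HEP-G2, Li-7 was at least 5.14-fold and at least 6.24-fold higher. SMAD3 was detected in both lines and 9.27-fold higher in Li-7 (difference 3.21, SE 0.26, adjusted p = 9.1e-05). As means of mimic and control arrays, SMAD6 was 4.53-fold, SMURF1 3.03-fold, SMAD1 2.84-fold and SMAD5 2.59-fold higher in Li-7. For SMAD6 the gap was uneven, at 0.84 between the control arrays and 3.52 between the mimic arrays. SMAD1 and SMAD5 were thus higher in the line in which SMAD4 and ID3 were not detected.

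The 11 members that did not pass between the lines included TGFB1 (-0.16), TGFBR2 (-0.04), ACVR1 (-0.04), BAMBI (-0.01) and SMAD2 (-0.14), with SEs from 0.24 to 0.30. BMP4 also read nearly alike, at -0.23 (SE 0.29). The 7 measured hepatocyte markers moved with the line, with log2 values summing to 39.4 and 38.7 in Li-7 against 104.9 and 101.5 in HEP-G2, mimic before control, and their part in the pathway differences was not tested.

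Further genes of the pathway, outside the 41, were more mixed in sign. Of 67 listed, 60 were measured and 40 tested, 15 of the latter detected on all arrays. Of those tested, 0 passed, against 0.42% of all genes tested. Higher in both lines were 20 (50%), against 34.1% of all genes tested, and 9 (22.5%) were lower in both, against 31.0%. The signs were opposite for 11 (27.5%), against 34.9%. The median mean change was 0.14, against 0.03. The genes named here by size of mean change were BMP1, BMP7, FBN1 and LRRC32. BMP1, a protease that cleaves procollagens and LTBP1, read 10.10 with the mimic and 8.63 with control in Li-7, and 7.04 and 6.08 in HEP-G2, and was detected on the Li-7 mimic array alone (mean change 1.22, SE 0.26, adjusted p = 0.0907). FBN1, the fibrillin that anchors latent complexes, read 10.57 and 9.53 in Li-7, and 6.05 and 5.07 in HEP-G2, mimic before control (mean change 1.01, SE 0.24, adjusted p = 0.109). LRRC32, the surface tether of latent TGF-beta known as GARP, stood at a mean change of 0.97 and BMP7, a BMP ligand, at -1.02, but neither was detected on any array. Against 34.1% of all genes tested, all 5 tested genes of latency and activation (BMP1, FBN1, LRRC32, THBS1 and FURIN) had positive differences in both lines. None of them was detected on all 4 arrays: FBN1 and THBS1 were detected in Li-7 alone and FURIN in HEP-G2 alone, so for each gene at least 1 line's difference lies within the range of the negative controls. BMP1 passed with genes under the median level left out (adjusted p = 0.0420).

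Response genes outside the set were mostly higher with the mimic or opposite in sign. Of 27 listed, 25 were measured and 19 tested, 4 of the latter detected on all arrays. Of those tested, 0 passed, against 0.42% of all genes tested. Higher in both lines were 10 (52.6%), against 34.1% of all genes tested, and 1 (5.26%) was lower in both, against 31.0%. The signs were opposite for 8 (42.1%), against 34.9%. The median mean change was 0.69, against 0.03. The 14 tested TGF-beta response genes had a median of 0.80, and the 5 tested BMP response genes had a median of 0.11. Detected on all arrays were 4 of the 14 and 0 of the 5. For each of these BMP response genes at least 1 line's difference lies within the range of the negative controls. The medians were not compared by a test. CCN1, a matricellular protein, read 11.49 with the mimic and 10.32 with control in Li-7, and 9.72 and 6.77 in HEP-G2, where the control was not detected (mean change 2.06, SE 0.42, adjusted p = 0.0851). CDKN1A, the p21 cell cycle inhibitor, read 9.95 and 8.94 in Li-7, and 13.40 and 11.24 in HEP-G2, mimic before control (mean change 1.58, SE 0.33, adjusted p = 0.0880). NUAK1, a kinase (mean change 1.57), and COL4A1, a basement membrane collagen (mean change 1.47), were each detected on the Li-7 mimic array alone. CCN1 was 2.25-fold higher with the mimic in Li-7 and at least 2.58-fold higher in HEP-G2, and CDKN1A 2.01-fold and 4.47-fold higher. With genes under the median level left out, CCN1 and CDKN1A passed (adjusted p = 0.0378 and 0.0386), and with an intensity trend CCN1, CDKN1A and NUAK1 did (adjusted p = 0.0330, 0.0324 and 0.0412). NUAK1 also passed with the filter at the negative controls (adjusted p = 0.0460).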

How the data were processed

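The values the authors deposited, 1 per probe set and array, were read as log2. Transcriptome Analysis Console and Affymetrix Expression Console are named, per the submitters' processing notes. Background correction, normalization, log base and genome build were not given in the sources used here. Deposited values span 1.48 to 18.3, above what a log2 of usual scanner readings reaches, so folds hold on the deposited scale. Of 24351 probe sets, 17709 carried 1 gene name in the platform annotation, 0 several and 6642 none used here, and all 17709 matched RefSeq identifiers (GRCh38.p14). The brightest probe set by mean over the arrays stood for a gene. Genes at or above the 30th percentile of mean value were tested with limma 3.58.1 in R 4.3.3 (cell line and treatment, eBayes, Benjamini-Hochberg over 12381 genes, threshold 0.05, 1 residual and 5.85 prior degrees of freedom). On simulated arrays with known changes the fit recovered the larger ones and made more false calls than the nominal share. Detection on an array meant a value above 95% of its negative controls. Named with all values were members with a mean change of at least 1, a 2-fold change in a line or a gap of 3 between lines, and of each other list up to 4 genes by size of change. Members, lists, motifs and tests were chosen with earlier results of these data known. Alternatives covered normalization, filter, probe set rule, variance moderation, model and the 2-fold limit (1.5-fold). The number of arrays limits the precision.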

Additional observations from a re-analysis of the deposited data

Results flagged for a closer look

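Among the genes named here, 9 members and HAMP had differences between mimic and control of opposite sign in the lines, with 1 array per group, so whether the responses differ was not tested. Values are the Li-7 difference minus the HEP-G2 difference in log2 units. Of the members detected on all 4 arrays, SMAD6 stood at 2.68, ID1 at -1.33, BAMBI at 0.94 and SMURF1 at 0.28. For the other 6 genes at least 1 line's difference lies within the range of the negative controls, so their values have no order among these. FST stood at -3.19 and HAMP at -3.14, both detected in HEP-G2 alone, and PMEPA1 at 1.92, detected in Li-7 alone. INHBB (0.92), TGFB3 (-0.39) and INHBA (-0.37) were detected on no array. Opposite signs of any size were seen in 34.9% of all genes tested, in 11 of the 40 other pathway genes tested and in 8 of the 19 other response genes tested, HAMP among them.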

How the results depend on the processing

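For the common mimic response over all genes, 52 passed (80.8% lower). The count was 87 after quantile normalization (77% lower), 0 after cyclic loess, 366 with the filter at the median gene (65.3% lower), 200 with the filter at the negative controls (70.5% lower), 411 with an intensity trend (61.6% lower), 1 with an ordinary t statistic (0% lower) and 0 in a model without cell line. Of the members, 1 passed with the filter at the median gene, 2 with the intensity trend and 0 otherwise. HMGA1 kept its change but not its call after cyclic loess (-3.58, adjusted p = 0.0545), under an ordinary t (-3.59, adjusted p = 0.640) and without cell line (-3.59, adjusted p = 1). The 26 members that differed between the lines became 0 with an ordinary t statistic, and 8 lost their line call in a fit without treatment. Over all alternatives, 347 values of the line difference kept direction and side of the threshold, 8 gained a call and 36 lost it. At 1.5-fold in place of 2-fold, 17 members were counted in Li-7 in place of 8, and 18 in HEP-G2 in place of 9. The sign of the mean change turned for INHBA after quantile normalization (-0.017) and cyclic loess (-0.0073), and for FST after quantile normalization (-0.036). For the genes named, 492 values of the mean change kept direction and side of the threshold under an alternative, 10 gained a call and 3 turned in sign. The causes were not tested. The model with cell line sets mimic against control within each line and so is the paired analysis, and the model without cell line is the unpaired one. The labels give no replicate numbers, and no group had a replicate to leave out. Of the 39 measured members, 22 were detected on all arrays, and values under the detection limit on at least 1 array limit the others.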

Other observations

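Among genes chosen after their values were seen, HAMP, which encodes the iron hormone hepcidin and is a BMP target in hepatocytes, read 14.31 with the mimic and 11.90 with control in HEP-G2, and 4.19 and 4.93 in Li-7, where it was not detected. It was 5.29-fold higher with the mimic in HEP-G2, from single arrays with no test, and HEP-G2 was at least 26.8-fold above Li-7 (limma adjusted p = 6.79e-05). THBS1, thrombospondin 1, an activator of latent TGF-beta, read 14.33 and 13.22 in Li-7, and 7.48 and 6.70 in HEP-G2, mimic before control, and Li-7 was at least 45.2-fold above HEP-G2 (limma adjusted p = 3.78e-06). MSX1, a homeobox gene of the BMP response, read 7.82 with the mimic and 9.26 with control in HEP-G2, and 3.17 and 4.05 in Li-7, and was detected on the HEP-G2 control array alone. For the mimic response over both lines, HAMP, THBS1 and MSX1 did not pass the limma test. Their mean changes were 0.83, 0.94 and -1.16, in that order (limma adjusted p = 0.530, 0.127 and 0.102).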
